A study of Mus musculus with 16 samples.

Results

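Solute carriers are the membrane transporters whose gene symbols begin with Slc, and 181 of the 27928 genes in the table of splenic B cell RNA were members here. They were chosen by name, a symbol of Slc followed by a number, the letter a and a further number, and selected on a mean of at least 20 normalized counts over the 8 libraries. The name pattern matched 293 genes, of which 109 were under that mean and 3 at or above it were left out by the rule. Just inside the limit stood Slc39a8 with a mean of 20.3 and Slc3a1 with 20.6, and just outside it Slc25a2 with 19.7 and Slc12a8 with 19.5. The mean does not tell follicular (FO) from marginal zone (MZ) B cells, except that 12 members reached it through 1 of the subsets only. Total RNA was sequenced from FO B cells (CD21lo CD23hi) and MZ B cells (CD21hi CD23lo), sorted from spleens of C57BL/6 mice aged 8 to 12 weeks to a purity above 90%. Wild type mice (WT) were compared with mice carrying homozygous floxed Gtf2i alleles and a Cre recombinase that acts throughout the B lineage (cKO), and so before these subsets form. Each of the 4 groups (WT FO, WT MZ, cKO FO and cKO MZ) held 2 libraries, and the labels do not say which libraries came from separate mice, so p-values measure the spread between these libraries. In sorted populations, fewer cells of a type and less RNA per cell cannot be told apart.

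Solute carriers move small molecules across membranes by facilitated diffusion, exchange or coupling to ion gradients, and families are numbered by sequence likeness rather than by substrate. Most Slc25 carriers sit in the inner mitochondrial membrane. Slc39 (ZIP) proteins bring zinc and other divalent metals into the cytosol, while Slc30 (ZnT) proteins remove zinc from it. Slc29 proteins let nucleosides equilibrate across membranes. Lymphocytes depend on such transporters for amino acids, glucose, nucleosides and metal ions. FO B cells recirculate through follicles and answer protein antigens with T cell help, whereas MZ B cells stay at the blood-facing edge of the white pulp and respond rapidly to blood-borne antigen.

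The libraries held between 21546552 and 25083552 reads on genes. Gtf2i itself was lower in each cKO library than in each WT library of its subset, with 1523 to 1889 against 1992 to 2864 normalized counts, a difference that was not called in either subset. Counts per gene do not show which exons the reads came from. Of 8 MZ marker genes, 7 were called higher in MZ in each genotype. Of the members, 8 lie on X. The library cKO MZ replicate 1 stood apart in its summed counts of erythroid genes (13466.5 against 38.9 to 1045.8 in the other libraries) and of granulocyte genes (2062.2 against 53.7 to 125.8). Of the 8 genes of dividing cells, 6 were called higher in MZ in each genotype, with summed counts over the list of 2674.8 to 8304.7 in MZ and 750.9 to 1611.6 in FO libraries.

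More members were called higher in MZ than higher in FO in each genotype. Genes were called at an adjusted p of at most 0.05 (limma on log2 of the normalized count plus 1, Benjamini-Hochberg over the 14761 genes with a mean of at least 10) and a difference of at least 1.5-fold. In WT, 27 of the 181 members (14.9%) were called higher in MZ, where 7.41% of all genes tested were, and 10 (5.52%) were called higher in FO, where 4.62% of all genes were. In cKO, 32 members (17.7%) were called higher in MZ against 8.18% of all genes, and 10 (5.52%) higher in FO against 5.54%. Among the 13169 genes that reach the same mean of 20 the shares were 7.68% and 5.03% in WT and 8.37% and 6.0% in cKO. The FO shares of the members thus lay near those of all genes, and the MZ shares were higher. The median difference was small all the same, at -0.047 on the log2 scale in WT and -0.0922 in cKO against 0.00479 and 0.00466 over all genes tested, and 138 members were called in neither genotype.

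Leaving out a single library moved some of these counts by over 1.5 times. Without WT MZ replicate 1, 6 members were called higher in FO in WT. In cKO, leaving out cKO FO replicate 1 or cKO MZ replicate 1 left 5 or 6 members higher in FO, and 16 were higher in MZ without cKO MZ replicate 1, the library rich in erythroid and granulocyte transcripts. Without that library 8.84% of the members and 4.32% of all genes tested were called higher in MZ in cKO. In FO the members called were 3.31% without WT MZ replicate 1 (WT), 2.76% without cKO FO replicate 1 and 3.31% without cKO MZ replicate 1 (cKO), beside 3.35%, 3.26% and 2.95% of all genes. Removing the 12 members that reached the mean through 1 subset only left 9 higher in FO and 23 higher in MZ in WT, and 9 and 27 in cKO, of 169.

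The FO against MZ comparisons of WT and cKO share no library but come from a single fit with a shared estimate of the spread, so their calls are not separate. The WT calls of Slc43a1, Slc4a3, Slc15a3 and Slc25a39, for example, were each lost without at least 1 of the cKO libraries. In both genotypes 27 members were called higher in MZ (6.3% of all genes were) and 9 higher in FO (3.96% of all genes were), and no member was called in opposite directions. Slc22a3, Slc6a13, Slc39a4 and Slc4a11, 4 of the called members, differed at least 8-fold in each genotype. Of these, Slc22a3 and Slc6a13 reached the required mean through MZ only, so the size of their difference is in part fixed by the selection rule. Slc25a24 was called only in WT, and Slc38a1 (higher in FO), Slc12a5, Slc38a9, Slc28a2, Slc22a23 and Slc46a1 (higher in MZ) only in cKO (Slc22a23 not without any 1 of the cKO libraries, highest adjusted p 0.166), which does not show that the genotypes differ at these genes. Across the 181 genes the FO minus MZ differences of the genotypes had a Pearson correlation of 0.953, against 0.887 across all genes tested. Genes are not independent replicates, and no p was attached. The calls of 13 of the 27 members higher in MZ and 5 of the 9 higher in FO stood in both genotypes under each of the 16 other fits tried, with each library left out among them.

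**Figure D1:**
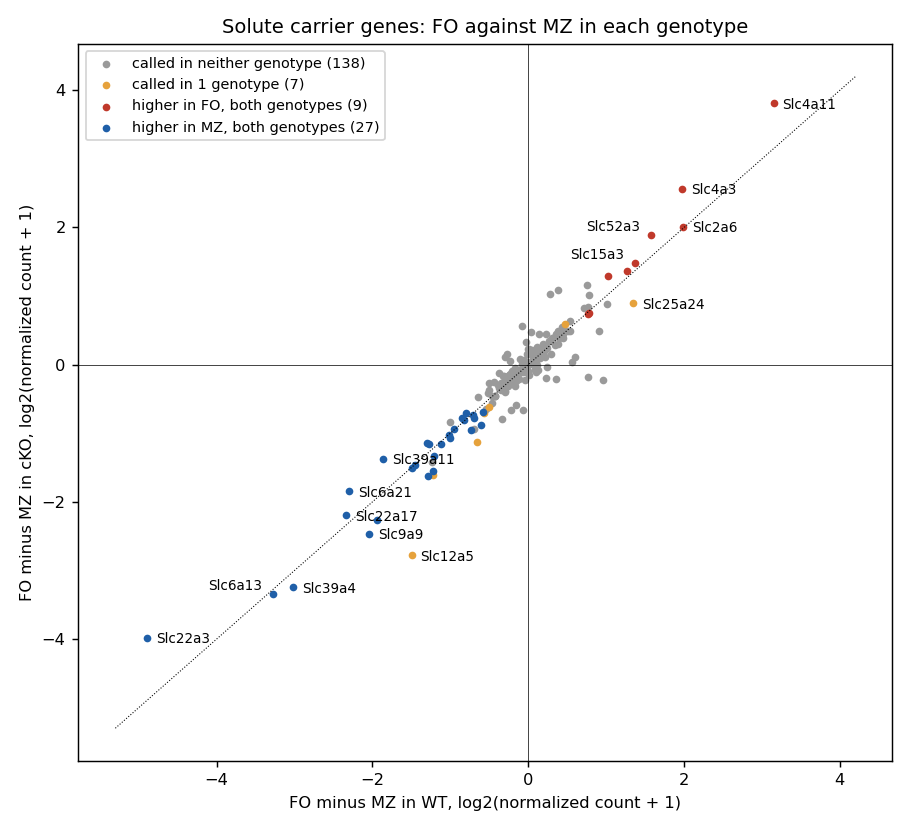
Difference between FO and MZ B cells in WT (x axis) and cKO (y axis) for the 181 solute carrier genes, on the scale log2(normalized count + 1), each point a gene and the dotted line equality. The 27 genes higher in MZ in both genotypes lie at the lower left and the 9 higher in FO at the upper right, close to the line.

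By substrate class, the calls among metal ion and nucleoside members were all toward MZ, and those among inorganic ion transporters went both ways. Of 25 metal ion members, 6 were higher in MZ in both genotypes and 0 higher in FO. Of 5 nucleoside and nucleobase members, 2 were higher in MZ in WT and 3 in cKO. Of 27 transporters of inorganic ions and acid equivalents, 4 were higher in MZ in WT (5 in cKO) and 5 higher in FO in each genotype. Of 39 mitochondrial carriers, 34 were called in neither genotype. No member was called among 5 lipid and bile acid, 6 monocarboxylate and dicarboxylate and 5 nucleotide sugar transporters. Over all genes tested, 6.3% were called higher in MZ and 3.96% higher in FO in both genotypes. At those shares few or no calls would fall in classes of this size, so their absence is not read as a trait of a class. The classes were assigned by hand from general knowledge of the families, so a member with several substrates stands in 1 class only.

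**Figure D2:**
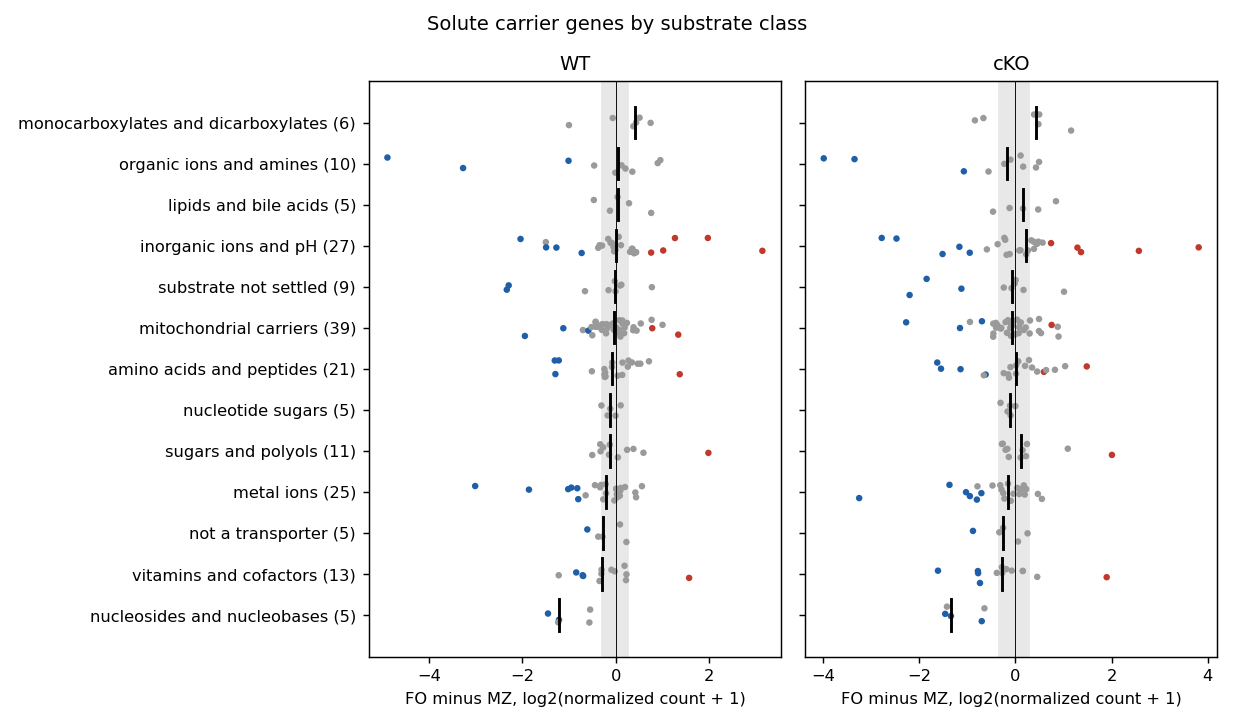
FO minus MZ difference of each member in WT (left) and cKO (right) on the scale log2(normalized count + 1), by substrate class with the number of members in brackets. Red points were called higher in FO, blue points higher in MZ and grey points were not called; black bars are class medians and the grey band spans the interquartile range of all genes tested. The nucleoside and nucleobase class has medians of -1.22 and -1.34, and the other class medians lie between -0.301 and 0.434.

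Among the metal ion transporters, 5 of the 6 genes higher in MZ handle zinc and the remaining gene handles magnesium. The zinc families Slc39 (12 members) and Slc30 (6) make up most of the 25 members of the class. Slc39a4 (ENSMUSG00000063354.7, chromosome 15 from 76612383 to 76617384 of GRCm38), the zinc importer of the gut mutated in acrodermatitis enteropathica, had 24.0 and 22.8 normalized counts (WT FO) and 186 and 206 (WT MZ). In cKO it had 25.8 and 20.1 in FO and 228 and 221 in MZ. Every MZ library was thus far above every FO library, by 8.08-fold in WT and 9.48-fold in cKO (log2 difference -3.01 and -3.25, SE 0.23 in each; limma adjusted p = 0.000251 and 0.000165). Slc39a11 (ENSMUSG00000041654.15, chromosome 11 from 113244853 to 113650079), a ZIP protein placed at the Golgi, had 86.8 and 100.8 counts (WT FO), 351 and 334 (WT MZ), 149 and 136 (cKO FO) and 359 and 379 (cKO MZ). Its log2 difference was -1.86 (WT) and -1.37 (cKO) (SE 0.16 in each). The plasma membrane importers Slc39a6 and Slc39a14 were higher in MZ by 2.03-fold and 1.93-fold in WT and 2.03-fold and 1.92-fold in cKO. Slc30a7, which loads zinc into the secretory pathway, was 1.77-fold and 1.74-fold higher in MZ, and Slc41a2, a magnesium transporter, 1.74-fold and 1.63-fold. The cKO calls of Slc30a7 and Slc41a2 were lost without cKO MZ replicate 1 (adjusted p = 0.0556 and 0.0869), that of Slc41a2 also without cKO FO replicate 1.

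**Figure D3:**
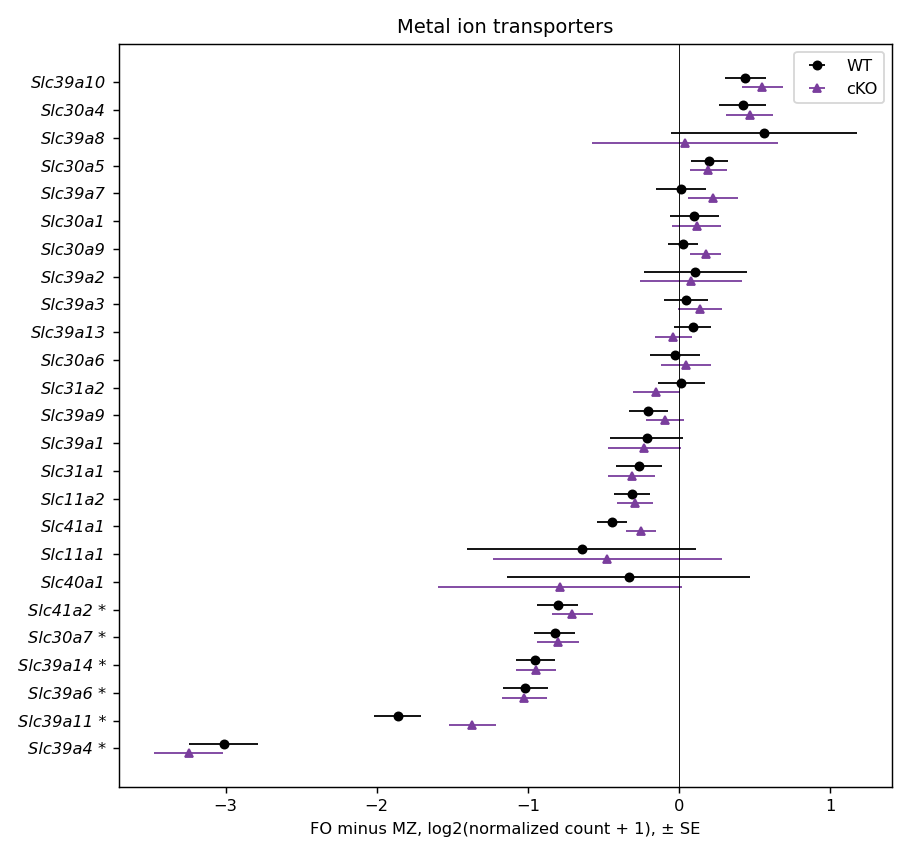
FO minus MZ difference of the 25 metal ion transporters on the scale log2(normalized count + 1), with circles for WT, triangles for cKO and bars for the standard error of the fit. The asterisks mark the 6 genes called higher in MZ in both genotypes, which range from Slc39a4 at -3.01 and -3.25 to Slc41a2 at -0.80 and -0.71.

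The other 19 metal ion members were not called. The most abundant of the class per kilobase of exon, the Golgi zinc transporter Slc30a5, had 3557 and 4160 counts (WT FO) and 3126 and 3585 (WT MZ), which overlap. Slc39a10, a zinc importer of the plasma membrane, gave log2 differences of 0.44 (WT) and 0.55 (cKO) toward FO, and Slc39a8, a zinc and manganese importer, 0.56 (WT) and 0.04 (cKO), none of them called. Slc40a1, the iron exporter ferroportin, and Slc11a1, the phagosomal metal transporter of macrophages, varied more between libraries than between subsets. Slc40a1 had 63.9 and 148 counts (WT FO), 51.0 and 294 (WT MZ), 151 and 67.4 (cKO FO) and 220 and 139 (cKO MZ). In the same order, the summed counts of 12 macrophage genes were 591.8 and 994.2, 708.9 and 1799.5, 1244.0 and 760.9, and 1964.5 and 1446.7, so the library of each pair with more Slc40a1 was the one with more macrophage transcripts. Of the 11 macrophage genes tested, 1 was called higher in MZ in each genotype. The part of these transcripts in the result was not tested.

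Promoter windows are shown for the metal ion genes higher in MZ, a group formed by the calls themselves. RefSeq windows of 300 bases on GRCm38.p6, from 250 bases before to 50 after an annotated start, were found for 138 of the 181 members, including Slc39a11, Slc41a2 and Slc30a7 of the 6. Capitals mark the core of the metal response element, searched on both strands as TGCACNC or TGCGCNC. For Slc39a11 the upstream of its 2 windows is printed.
Slc39a11, chr11:113650043-113650342, minus strand: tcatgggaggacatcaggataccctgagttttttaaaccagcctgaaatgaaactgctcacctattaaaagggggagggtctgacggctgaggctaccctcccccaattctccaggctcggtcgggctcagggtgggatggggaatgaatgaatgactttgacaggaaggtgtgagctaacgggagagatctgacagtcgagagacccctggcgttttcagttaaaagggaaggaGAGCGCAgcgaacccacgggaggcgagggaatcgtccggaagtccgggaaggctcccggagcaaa
Slc41a2, chr10:83337768-83338067, minus strand: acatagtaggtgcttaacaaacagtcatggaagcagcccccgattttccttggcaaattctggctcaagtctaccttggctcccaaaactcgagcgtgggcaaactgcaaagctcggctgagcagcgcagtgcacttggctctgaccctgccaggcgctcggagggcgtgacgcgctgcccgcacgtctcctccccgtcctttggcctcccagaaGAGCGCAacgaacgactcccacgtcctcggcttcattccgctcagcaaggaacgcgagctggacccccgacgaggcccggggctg
Slc30a7, chr3:116007357-116007656, minus strand: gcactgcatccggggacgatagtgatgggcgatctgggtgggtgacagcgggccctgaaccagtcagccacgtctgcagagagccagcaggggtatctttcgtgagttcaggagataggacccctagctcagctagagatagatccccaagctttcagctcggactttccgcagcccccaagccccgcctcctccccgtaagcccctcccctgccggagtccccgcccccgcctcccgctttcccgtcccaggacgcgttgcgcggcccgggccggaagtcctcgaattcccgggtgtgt
The core occurs once in the Slc39a11 and Slc41a2 windows and not in the Slc30a7 window. It was in 3 of the 4 windows of these genes, in 42.1% of the 19 windows of metal ion members called in neither genotype, and in 25.7% of all 32851 windows. By gene, this was 2 of these 3 genes, against 8 of 17 (47.1%) metal ion members called in neither. Over the members higher in MZ in both genotypes the core was in 40.5% of 37 windows, and over those called in neither in 30.8% of 133. The 37 windows belong to 21 genes, with 8 of them from Slc29a1. Counted by gene, the core was in at least 1 window of 10 of the 21 genes (47.6%), of 37.7% of the 106 genes called in neither and of 28.2% of all 27025 genes with a window. The other motifs searched were TGGGAA (RBPJ), CACGTG (E-box) and TGATGNAA (amino acid response element). They were in 24.3%, 10.8% and 10.8% of the windows of members higher in MZ and in 25.6%, 7.15% and 3.97% of all windows. In the 133 windows of members called in neither genotype they were in 20.3%, 16.5% and 2.26%. Counted by gene, they were in 28.6%, 19.0% and 14.3% of the 21 genes. Among the 106 genes called in neither, these shares were 24.5%, 18.9% and 2.83%, and among all genes 28.3%, 8.09% and 4.51%. A match describes letters in a window and not a bound site.

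The nucleoside and nucleobase transporters were lower in FO than in MZ in all 5 members by fitted value, in both genotypes. Slc29a3 (ENSMUSG00000020100.15, chromosome 10 from 60712072 to 60752794), the equilibrative nucleoside transporter of lysosomes, had 1051 and 1075 counts (WT FO), 2782 and 3039 (WT MZ), 1001 and 841 (cKO FO) and 2453 and 2592 (cKO MZ). The groups were widely separated, with a difference of 2.73-fold in WT and 2.75-fold in cKO (log2 -1.45 and -1.46, SE 0.11 in each; limma adjusted p = 0.000225 and 0.000191). Slc29a1, the main equilibrative transporter of the plasma membrane, was 2.32-fold higher in MZ in WT and 2.53-fold in cKO. Slc28a2, a sodium-coupled purine nucleoside transporter and the most abundant of the class per kilobase, had 4427 and 4763 counts (WT FO) and 6763 and 6805 (WT MZ). That difference was 1.48-fold in WT (limma adjusted p = 0.00334), just under the fold required, and 1.62-fold in cKO, where it was called. Slc29a2 gave 1.46-fold and 1.56-fold and was not called. Slc43a3, a purine nucleobase transporter, had 252 and 614 counts (WT MZ) and 566 and 343 (cKO MZ) and was not called, with log2 differences of -1.23 and -1.42. The libraries with more Slc43a3 within each MZ pair were those with more transcripts of dividing cells (3204.3 and 8304.7 for WT, 6645.0 and 2674.8 for cKO), as in WT FO (125 and 224 Slc43a3 counts beside sums of 785.4 and 1611.6), whereas in cKO FO the order was the opposite (140 and 192 Slc43a3 counts beside sums of 826.3 and 750.9). The part of these transcripts was not tested. Slc29a4, a relative that carries monoamines and stands among the organic ions here, was also higher in MZ, by 2.02-fold and 2.1-fold, so 3 of the 4 Slc29 members were called in both genotypes. The calls of Slc29a4 were lost in WT without WT FO replicate 2 or WT MZ replicate 1 and in cKO without cKO FO replicate 2 or either cKO MZ library (highest adjusted p 0.0736 and 0.0623). Without WT FO replicate 1 or WT MZ replicate 2 the class median in WT was -0.81 or -0.59.

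Among vitamin and cofactor transporters, the calls in both genotypes were toward MZ for Slc46a3, Slc44a1 and Slc19a1 and toward FO for Slc52a3. Slc46a3 (a lysosomal member of the folate transporter family), Slc44a1 (choline) and Slc19a1 (the reduced folate carrier) were higher in MZ in both genotypes, by 1.62-fold to 1.8-fold in WT and 1.66-fold to 1.72-fold in cKO. Slc46a1, the proton-coupled folate transporter, had few counts (at most 36.1 in any library) and was called in cKO only, 3.05-fold higher in MZ. It reached the mean of 20 through MZ only. Slc52a3, a riboflavin transporter, went the other way with 88.8 and 68.5 counts (WT FO), 29.9 and 21.7 (WT MZ), 72.8 and 45.3 (cKO FO) and 14.9 and 14.4 (cKO MZ). It was 2.98-fold higher in FO in WT and 3.72-fold in cKO (limma adjusted p = 0.0199 and 0.00857), whereas its relative Slc52a2 gave log2 differences of 0.19 and 0.16 and was not called. Slc44a2, a choline transporter-like protein and the most abundant of the class per kilobase, had 10973 to 11441 counts in the FO and 13069 to 14340 in the MZ libraries, which do not overlap, and the difference of 1.24-fold (WT) and 1.21-fold (cKO) was under the fold required. The WT calls of Slc46a3, Slc44a1, Slc19a1 and Slc52a3 were lost without WT FO replicate 1 or WT MZ replicate 2 (highest adjusted p between 0.062 and 0.108). In cKO, all 4 were lost without cKO MZ replicate 1, Slc46a3, Slc44a1 and Slc52a3 without cKO FO replicate 1, Slc19a1 without cKO FO replicate 2, and Slc46a3, Slc19a1 and Slc52a3 without cKO MZ replicate 2 (highest adjusted p between 0.0637 and 0.0958). That of Slc46a1 was lost without any 1 cKO library (0.121).

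Of 21 amino acid and peptide transporters, 3 were called higher in MZ and 1 higher in FO in both genotypes. Over all genes tested these shares were 6.3% and 3.96%. In at least 1 genotype 6 of the 21 (28.6%) were called, where 23.8% of all members were. Slc7a7, the light chain of the cationic and neutral amino acid exchanger y+LAT1, Slc36a4, a proton-coupled amino acid transporter of endolysosomes, and Slc43a1, a facilitative transporter of large neutral amino acids, were higher in MZ by 2.47-fold, 2.33-fold and 2.45-fold in WT and 2.2-fold, 2.92-fold and 3.08-fold in cKO. Slc7a7 had 124 and 185 counts (WT FO), 356 and 395 (WT MZ), 159 and 120 (cKO FO) and 326 and 286 (cKO MZ). In each pair the library with more Slc7a7 was the one with more macrophage transcripts. The same held of Slc43a1, for transcripts of macrophages and of dividing cells, but not of Slc36a4 in WT MZ (354 and 350 counts). The part of these transcripts was not tested. The WT call of Slc43a1 was lost without any 1 of the 4 WT libraries or either cKO FO library (highest adjusted p 0.207), and its cKO call without cKO FO replicate 2 or cKO MZ replicate 1 (0.118). Those of Slc36a4 were lost without any 1 WT library (0.108) and, in cKO, without cKO MZ replicate 1 (0.0838). The cKO call of Slc7a7 was lost without cKO FO replicate 2 or either cKO MZ library (0.101). Slc38a9, the lysosomal arginine sensor of the mTORC1 pathway, had 2312 and 2707 counts (WT FO) and 3476 and 3650 (WT MZ), and gave 1.42-fold toward MZ in WT, under the fold required, and 1.53-fold in cKO, where it was called, though not without cKO MZ replicate 1 (0.0528). On the FO side stood Slc15a3, a peptide and histidine transporter of endolysosomes, with 402 and 559 counts (WT FO), 130 and 255 (WT MZ), 312 and 429 (cKO FO) and 129 and 132 (cKO MZ). It was 2.59-fold and 2.8-fold higher in FO, and its calls were lost without any 1 cKO library in cKO and without WT FO replicate 2, WT MZ replicate 1 or either cKO MZ library in WT (highest adjusted p 0.102 in cKO and 0.106 in WT). Its relative Slc15a4, which serves endosomal Toll-like receptor signalling, was more abundant per kilobase and differed by 1.11-fold and 1.15-fold, not called. The glutamine transporters Slc38a1 and Slc38a2 lie 44479 bases apart on chromosome 15 and both leaned toward FO. Slc38a1 had 8201 and 8493 counts (WT FO) and 5835 and 6186 (WT MZ), 1.39-fold in WT and 1.51-fold in cKO, where it was called, though not past the fold required without cKO FO replicate 1 or cKO MZ replicate 2. Slc38a2 gave log2 differences of 0.53 (WT) and 0.64 (cKO), Slc1a5, the glutamine and neutral amino acid exchanger and the most abundant of the class per kilobase, gave 1.2-fold and 1.27-fold toward FO, and the heavy chain Slc3a2 and its partner Slc7a5 gave log2 differences between -0.24 and -0.13, none of them called. Slc3a1, the heavy chain of the renal cystine transporter, differed by -0.22 and -0.66 and was not called.

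Transporters of inorganic ions and acid equivalents held the member with the largest difference toward FO. Slc4a11 (ENSMUSG00000074796.10, chromosome 2 from 130684113 to 130697519), a borate transporter-like protein that conducts protons and water, had 447 and 324 counts (WT FO) and 37.6 and 47.1 (WT MZ). In cKO it had 329 and 345 in FO and 25.9 and 20.6 in MZ. The subsets were far apart in each genotype, by 8.87-fold and 14.0-fold (log2 3.15 and 3.81, SE 0.24 in each; limma adjusted p = 0.000251 and 0.000125). Of the 7 Slc4 members, Slc4a3 (a chloride and bicarbonate exchanger) and Slc4a7 (a sodium bicarbonate cotransporter) were also higher in FO, by 3.94-fold and 1.7-fold in WT and 5.92-fold and 1.67-fold in cKO. Slc4a8, a sodium-driven chloride bicarbonate exchanger, was higher in MZ, with 370 and 413 counts (WT FO), 1152 and 1052 (WT MZ), 316 and 469 (cKO FO) and 1004 and 1205 (cKO MZ). Slc4a3 had at most 16.3 counts in any MZ library and lost its WT call without WT FO replicate 2, either WT MZ library or either cKO FO library (highest adjusted p 0.143), and its cKO call without either cKO FO library or cKO MZ replicate 1 (0.0751). It reached the mean of 20 through FO only.

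The anion exchangers Slc26a10 and Slc26a11 were higher in FO in both genotypes as well, by 2.42-fold and 2.03-fold in WT and 2.57-fold and 2.44-fold in cKO. Slc26a11, a lysosomal sulfate and chloride transporter, had 1210 and 942 counts (WT FO), 565 and 489 (WT MZ), 1240 and 1108 (cKO FO) and 458 and 500.1 (cKO MZ). Exons of Slc26a10 overlap those of B4galnt1 on the other strand, a gene with a mean of 7402 counts that was itself called higher in FO (log2 0.70 and 0.78), and whether the counting used strand is not given in the sources used here, so reads of the genes cannot be told apart. The same holds of Slc15a3 with Tmem132a, Slc20a2 with Smim19, Slc25a25 with Naif1, Slc38a9 with Gm47827 and Slc7a7 with Oxa1l, partners that were not called, except Gm47827, called higher in MZ in cKO. Higher in MZ were Slc9a9, a sodium and proton exchanger of recycling endosomes, Slc20a2, a sodium phosphate cotransporter, and Slc12a2, the sodium, potassium and chloride cotransporter NKCC1. Slc9a9 had 50.9 and 61.8 counts (WT FO), 220 and 249 (WT MZ), 28.0 and 37.2 (cKO FO) and 175 and 192 (cKO MZ), or 4.11-fold and 5.54-fold. Slc20a2 had 661 and 678 counts (WT FO), 1712 and 1528 (WT MZ), 661 and 648 (cKO FO) and 1486 and 1447 (cKO MZ), or 2.41-fold and 2.24-fold (limma adjusted p = 0.000231 and 0.000297), while its relative Slc20a1 was not called (log2 -0.29 and -0.18). Slc12a2 was 1.66-fold and 1.93-fold higher.

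**Figure D4:**
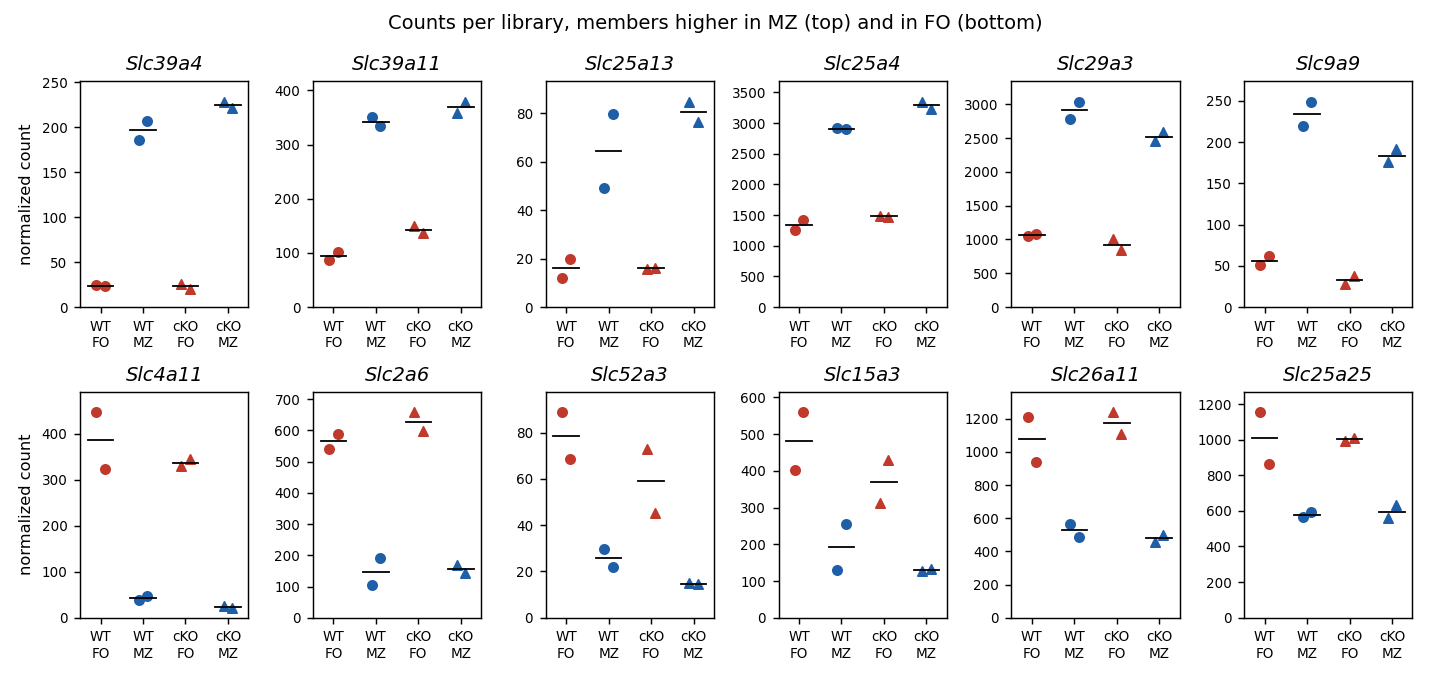
Normalized counts (y axis, from 0) of 12 members in each library, with FO in red, MZ in blue, WT as circles, cKO as triangles and a bar at the mean of each pair. In the upper row (higher in MZ) every MZ library lies above every FO library of its genotype, and in the lower row (higher in FO) every FO library lies above.

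Mitochondrial carriers, here the Slc25 family as a whole, were the largest class and had medians of -0.0288 in WT and -0.0709 in cKO. The most abundant member of all per kilobase, the phosphate carrier Slc25a3, had between 10572 and 13462 counts in the 8 libraries and log2 differences of 0.01 and 0.04. Slc25a4 (ENSMUSG00000031633.4, chromosome 8 from 46206797 to 46211284), an exchanger of ADP and ATP, had 1258 and 1418 counts (WT FO), 2912 and 2904 (WT MZ), 1488 and 1470 (cKO FO) and 3350 and 3222 (cKO MZ), 2.18-fold and 2.22-fold higher in MZ (limma adjusted p = 0.000258 and 0.000211). Slc25a5, the ADP and ATP exchanger with the higher level per kilobase here, gave 1.35-fold and 1.37-fold toward MZ, with adjusted p = 0.0115 and 0.00795 by limma and under the fold required. Slc25a13 (citrin, an aspartate and glutamate carrier of the malate-aspartate shuttle) was scarce, with 11.975 and 19.979 counts (WT FO), 49.1 and 79.7 (WT MZ), 15.7 and 16.1 (cKO FO) and 84.7 and 76.3 (cKO MZ). It was 3.85-fold and 4.82-fold higher in MZ. It reached the mean of 20 through MZ only, and its WT call was lost without WT FO replicate 1 or WT MZ replicate 2 (highest adjusted p 0.0698). Its more abundant relative Slc25a12 gave 1.21-fold and 1.23-fold in the same direction and was not called. Slc25a39, the glutathione carrier, was 1.5-fold and 1.62-fold higher in MZ, with its WT call at the fold limit and lost under 10 of the 16 other fits, those without WT FO replicate 1, either WT MZ library or either cKO MZ library among them (highest adjusted p 0.159), and its cKO call lost without cKO FO replicate 1 or either cKO MZ library (0.0974).

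Of the calcium-regulated carriers of ATP-magnesium and phosphate, Slc25a25 and Slc25a24 were called toward FO. Slc25a25 had 1154 and 861 counts (WT FO), 564 and 591 (WT MZ), 994 and 1012 (cKO FO) and 558 and 633 (cKO MZ), 1.72-fold and 1.69-fold higher in FO. Slc25a24 had 166 and 150 counts (WT FO), 51.0 and 74.3 (WT MZ), 96.3 and 95.6 (cKO FO) and 64.8 and 40.2 (cKO MZ), and was called in WT (2.54-fold) but not in cKO (1.86-fold, limma adjusted p = 0.0722). The interaction, which tests that difference itself, was not called at either gene, nor at any member. The calls of both genes were lost in WT without WT FO replicate 1 or WT MZ replicate 1 (highest adjusted p 0.066 and 0.1), that of Slc25a24 also without WT FO replicate 2, and that of Slc25a25 in cKO without either cKO FO library or cKO MZ replicate 1 (0.0922). Slc25a23, of the same group, differed by 1.13-fold and 1.04-fold and was not called.

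Sugar and polyol transporters had 1 called member of 11. Slc2a6 (ENSMUSG00000036067.12, chromosome 2 from 27021363 to 27027998), a glucose transporter family protein of lysosomes, had 542 and 588 counts (WT FO), 104 and 192 (WT MZ), 658 and 597 (cKO FO) and 169 and 142 (cKO MZ). It was 3.97-fold and 4.02-fold higher in FO (log2 1.99 and 2.01, SE 0.27 in each; limma adjusted p = 0.00262 and 0.00215). The plasma membrane glucose transporter Slc2a3 gave 1.09-fold and 1.15-fold toward MZ and was not called. Slc50a1, a Golgi and plasma membrane sugar transporter and ranked 2 of the members per kilobase, gave 1.19-fold and 1.18-fold toward FO, also not called. Among the monocarboxylate transporters Slc16a6, the most abundant of its class per kilobase, gave 1.43-fold and 1.41-fold toward FO with adjusted p = 0.0359 and 0.0363 by limma, under the fold required. The lactate transporters Slc16a1 and Slc16a3 were not called, and Slc16a4, with the largest mean difference of the class, gave log2 0.75 and 1.16 with 64.9 and 28.5 counts (WT FO) against 26.004 and 24.5 (WT MZ). In the lipid and bile acid class Slc10a1, a bile acid importer, gave log2 0.76 and 0.84 and the fatty acid transporter Slc27a4 0.04 and 0.47. In the nucleotide sugar class, whose members feed glycosylation in the Golgi, the differences lay between -0.31 and 0.11, with the CMP-sialic acid transporter Slc35a1 at -0.17 and -0.31 and Slc35a4 at 0.11 in WT. The name pattern takes only the Slc35 genes with the letter a. Outside it, Slc35c1 gave log2 differences of 0.77 (WT) and 0.76 (cKO) and Slc35c2 -0.51 and -0.45, none of them called.

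The largest differences toward MZ were at scarce transcripts of organic ion transporters. Slc22a3, the organic cation transporter OCT3, had 1.996 and 0.951 normalized counts in the WT FO libraries, 3 reads in all, against 108.8 and 46.2 (WT MZ), 164 reads in all. In cKO it had 7.84 and 0 normalized counts in FO and 37.9 and 55.7 in MZ. The ratio of MZ to FO was 52.4 in WT (95% exact interval from 17.6 to 257) and 12.6 in cKO (5.86 to 32.1), intervals that cover counting error only. Its calls were lost in WT without WT FO replicate 2 or WT MZ replicate 1 and in cKO without cKO FO replicate 2 or either cKO MZ library (adjusted p up to 0.0707 and 0.127). Slc6a13, the GABA and taurine transporter GAT2, had 2.99 and 5.71 counts (WT FO), 50.1 and 48.0 (WT MZ), 7.84 and 6.04 (cKO FO) and 81.7 and 76.3 (cKO MZ), a fitted log2 difference of -3.27 and -3.34 (limma adjusted p = 0.00159 and 0.00128). Both reached the mean of 20 through MZ only, so their difference is in part fixed by the rule. Slc17a9, the vesicular nucleotide transporter and the most abundant of the class per kilobase, gave 1.28-fold and 1.35-fold toward FO, under the fold required. The remaining members held 9 genes whose substrate is not settled and 5 that carry the name of a transporter without being one. Among the former, Slc22a17 (a receptor for lipocalin 2) had 47.9 and 40.9 counts (WT FO), 267 and 194 (WT MZ), 62.7 and 56.4 (cKO FO) and 249 and 306 (cKO MZ), 5.05-fold and 4.59-fold higher in MZ. Slc6a21 was 4.91-fold and 3.59-fold higher in MZ, with 7.98 to 13.1 counts in the FO libraries, reached the mean of 20 through MZ only, and lost its cKO call without cKO FO replicate 1 or either cKO MZ library (highest adjusted p 0.0597). Slc38a10, the most abundant of these per kilobase, gave log2 differences of 0.09 (WT) and 0.17 (cKO). Among the latter, the pseudogene Slc2a4rg-ps was 1.52-fold and 1.84-fold higher in MZ, its WT call lost without WT FO replicate 1 or either WT MZ library (0.135) and its cKO call without cKO MZ replicate 1 (0.0572), and the scaffold protein Slc9a3r1 gave 1.3-fold and 1.26-fold toward MZ, under the fold required.

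Per kilobase of exon, the mean normalized count was highest for Slc25a3 at 2190, Slc50a1 at 2146, Slc1a5 at 2086, Slc25a5 at 1919 and Slc25a37, the mitochondrial iron importer mitoferrin, at 1624. Of the 20 highest, Slc25a4 (rank 11) was called in both genotypes and Slc28a2 (rank 7) in cKO. That is 5.0% called in both genotypes and 10.0% in at least 1, where 19.9% and 23.8% of all members were, a difference that was not tested. With 6.3% of all genes tested higher in MZ and 3.96% higher in FO in both genotypes, few calls would fall among 20. In the library cKO MZ replicate 1, rich in erythroid transcripts, Slc25a37 had 9915 counts against 9843 in the other cKO MZ library. By assigned location, members called in both genotypes comprised 15 higher in MZ and 5 higher in FO of 84 at the plasma membrane. In the same order they were 4 and 3 of 21 in lysosomes or endosomes and 3 and 1 of 40 in mitochondria. They were 2 and 0 of 22 in the endoplasmic reticulum or Golgi, and 3 and 0 of 14 with no location assigned. Of all genes tested, 6.3% were higher in MZ and 3.96% higher in FO in both genotypes.

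**Figure D5:**
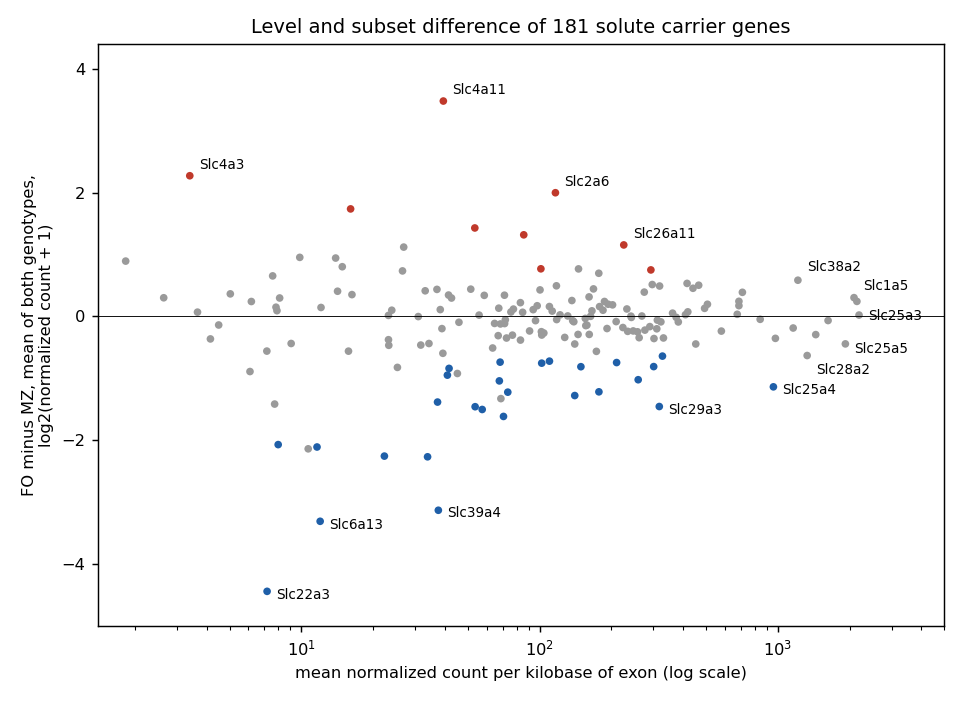
Mean normalized count per kilobase of exon over the 8 libraries (x axis, log scale) against the FO minus MZ difference averaged over the genotypes (y axis, log2(normalized count + 1)) for the 181 genes. Red and blue mark genes called higher in FO and in MZ in both genotypes, and the coloured gene at the highest level is Slc25a4, at 957.5.

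A list of 55 related transporters and partner proteins outside the name rule, of which 49 were tested, was examined beside the members. Of these, 8 were called higher in MZ and 3 higher in FO in both genotypes, where 6.3% and 3.96% of all genes were. Higher in MZ were Emb, the chaperone of lactate transporters (log2 -2.16 in WT and -2.53 in cKO), Mfsd2a, a transporter of lysophosphatidylcholine (-2.28 and -1.998), Slc35f2 (-1.62 and -1.86), Pqlc2, a lysosomal exporter of cationic amino acids (-1.46 and -1.36), the mitochondrial serine transporter Sfxn1 (-1.05 and -1.18), Sfxn5 (-1.13 and -1.01), Spns3 (-1.13 and -1.10) and Mfsd10 (-0.91 and -0.91). Higher in FO were Spns2, the exporter of sphingosine phosphate (1.44 and 1.72), Sfxn3 (1.44 and 1.33) and Slc35f6 (0.72 and 0.95). Spns2 had 2562 and 1794 counts (WT FO) and 893 and 695 (WT MZ), and Sfxn1 had 817 and 1019 (WT FO) and 1804 and 1977 (WT MZ), without overlap in either gene.

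Between cKO and WT no member was called. In FO B cells 0 of 181 members were called, where 0.0677% of all genes were, and in MZ B cells 0, where 0.0339% of all genes were. DESeq2 and the edgeR quasi-likelihood test on the recovered reads also called 0 members in either subset. An unadjusted limma p under 0.05 was found for 3 members in FO and 5 in MZ, which is 1.66% and 2.76% of the members against 2.59% and 4.04% of all genes tested. In FO these were Slc39a11 (149 and 136 counts in cKO against 86.8 and 100.8 in WT), Slc9a9 (28.0 and 37.2 against 50.9 and 61.8) and Slc25a24 (96.3 and 95.6 against 166 and 150). In MZ they were Slc12a5, Slc25a36, Slc41a1, Slc41a2 and Slc4a11, the last with 25.9 and 20.6 counts in cKO against 37.6 and 47.1 in WT.

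The interaction of genotype and subset, which asks whether the FO minus MZ difference itself differs between cKO and WT, called 0 members and 0 genes in all (0.0%), also by DESeq2 and edgeR for the members. No member had an unadjusted limma p under 0.05, against 0.637% of all genes tested. The members with the smallest p were Slc39a11 (interaction 0.49, SE 0.22), Slc27a4 (0.43, SE 0.21) and Slc12a5 (-1.28, SE 0.65), with limma adjusted p = 0.99995 for each. Slc12a5, the potassium and chloride cotransporter KCC2, had 24.9 and 21.9 counts (WT FO), 81.9 and 56.1 (WT MZ), 21.3 and 30.2 (cKO FO) and 111.6 and 289 (cKO MZ). The library cKO MZ replicate 2 was the highest of the 8.

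A few members varied more between the libraries of a pair than between subsets or genotypes. Slc15a2, a plasma membrane peptide transporter, had 112 and 1044 counts (WT FO), 63.6 and 676 (WT MZ), 3893 and 685 (cKO FO) and 1553 and 549.6 (cKO MZ). Replicate 1 was the lower library in both WT pairs and the higher in both cKO pairs, and the within-group SD was 1.95 on the log2 scale, the widest of the members. Slc14a1, a urea transporter, had 524 and 1360 counts (WT FO), 282 and 721 (WT MZ), 551 and 1110 (cKO FO) and 522 and 591 (cKO MZ), with replicate 2 higher in each pair. In each of the 4 same-numbered FO and MZ pairs, both genes were higher in FO. Neither was called between subsets, with limma adjusted p = 0.786 (WT) and 0.728 (cKO) for Slc15a2 and 0.334 and 0.587 for Slc14a1. With the replicate number as a block these were 0.771 and 0.712 for Slc15a2 and 0.0558 and 0.233 for Slc14a1. The block is a single term shared by WT and cKO. It cannot take up the spread of Slc15a2, whose order of replicates is opposite in the genotypes (SE 1.409 without and 1.398 with it). The labels do not say that the numbers pair the samples.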

How the data were processed

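The RNA-seq data cover sorted FO and MZ cells of both genotypes, with 2 libraries in each of 4 groups. According to the methods of the study, ribosomal RNA was depleted and 50-base single-end reads were aligned to mm10 with HISAT2 and counted with featureCounts and htseq-count, tools that the submitters' processing notes name too. Versions and the strand setting are not given in the sources used here. The authors deposited signal values, that is counts divided by DESeq2 size factors, for 27928 genes (256343 blank lines were dropped). Whole reads were recovered for 100% of values, within 0.01 of a read. In 3 of the 8 libraries the size factor lay within 1% of 1, so the steps there are harder to tell from plain counts, though only 20.9% of their values above 0 were whole before division by the step. Each library held at least 21546552 reads on genes, so counting error matters mainly for low genes, and precision is set by having few libraries.

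Identifiers were matched to GENCODE release M21 (GRCm38), which gave a position for 27872 genes. Log2(normalized count + 1) of the 14761 genes with a mean of at least 10 went into limma 3.58.1 (R 4.3.3, lmFit then eBayes with trend), all 8 libraries in a single fit. A call needed an adjusted p no higher than 0.05 and a change of 1.5-fold or more, as in the study. The fold changes of low genes are understated on this scale. Also tried were quantile and TMM normalization, a pseudocount of 0.5, leaving the filter out, only the 4 libraries compared, a replicate block, recovered reads in DESeq2 1.42.0 and in edgeR 4.0.16 (quasi-likelihood), other fold cutoffs, members with a mean of at least 100, and each library left out. Added after seeing the data were the members with a mean of at least 20 in both subsets, those with no exon overlap and the exchanged block. The promoter motifs were also chosen then.

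The members, their substrate classes and the gene lists were chosen with earlier results of these data known. Slc12a9, Slc6a21 and Slc36a3os were given a class after the table was read. Members were named as the 12 called with the smallest p in each direction and genotype, the most abundant per kilobase and the most different of each class, those nearest the mean of 20 from above, those with the smallest interaction p, and of the related list those called in both genotypes. Relatives of these, calls in a single genotype, members with an unadjusted p under 0.05 between genotypes and the variable members Slc40a1, Slc11a1, Slc15a2, Slc14a1 and Slc43a3 were named after their values were seen. The lists of FO, B cell, T cell, plasma cell, platelet and dendritic cell markers were also summed. In the FO list (Fcer2a, Ighd and Cr2) 2 genes were called higher in FO and Cr2 higher in MZ in each genotype. Of the 7 B cell genes 0 were called. The T cell sums lay between 781.4 and 1311.9, the platelet sums between 44.4 and 107.8, the dendritic cell sums between 190.6 and 515.3 and the plasma cell sums between 14867.0 and 41216.0 normalized counts. The ATAC-seq samples were not analysed here. A member that the naming rule picked is not reported here.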

Additional observations from a re-analysis of the deposited data

How the results depend on the processing

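No member was called between genotypes or by the interaction under any alternative, and no called member changed direction between FO and MZ. The counts of members called higher in FO and in MZ in WT were 10 and 27, and in cKO 10 and 32. With only the 4 libraries compared, 5 were higher in FO in WT. In cKO, 17 were higher in FO without a fold cutoff and 21 higher in MZ at 2-fold. With each library left out the counts ranged from 6 to 10 (FO in WT), 5 to 11 (FO in cKO) and 16 to 33 (MZ in cKO). The lowest of these 3 ranges came without WT MZ replicate 1, cKO FO replicate 1 and cKO MZ replicate 1. By DESeq2 the 4 counts were 10, 28, 12 and 32 and by edgeR 10, 25, 10 and 32. Without the 29 members whose exons overlap another gene they were 7, 25, 7 and 29.

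The labels share replicate numbers but state no pairing. With the number as a replicate block the counts were 10 and 27 in WT and 11 and 34 in cKO. Deviations of same-numbered libraries correlated at 0.591 between WT FO and WT MZ, at -0.00151 between cKO FO and cKO MZ and at -0.296 between WT MZ and cKO MZ. With the numbers of cKO MZ exchanged the block gave 10 and 30 in WT and 12 and 35 in cKO, with 0 members called between genotypes.

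Signs turned only at differences that were not called. Under quantile normalization Slc25a3 was at -0.10 in WT and -0.12 in cKO and Slc38a10 at -0.0014 in WT. With each library left out in turn, Slc25a3 ranged from -0.1502 to 0.1693 in WT and from -0.0674 to 0.1397 in cKO, Slc27a4 from -0.1374 to 0.2182 in WT, Slc35a1 from -0.3602 to 0.0159 in WT, Slc35a4 from -0.0473 to 0.0467 in cKO, and Slc39a8 from -0.0808 to 1.2092 in WT and from -0.5847 to 0.664 in cKO. The cause was not tested.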
